A study of Mus musculus with 10 samples.

Results

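Splicing regulators are RNA-binding proteins that decide which exons a messenger RNA keeps, and 10 of their genes known for shaping the heart transcriptome after birth are described here: Rbm20, Rbm24, Rbfox1, Rbfox2, Mbnl1, Mbnl2, Celf1, Celf2, Ptbp1 and Qk. They were chosen by name from the 23337 genes of the deposited count table, and all 10 were found there and passed the filter on low counts that left 11870 genes. The libraries hold poly(A) RNA of mouse cardiomyocytes, the contractile cells of the heart, taken at postnatal day 14 by perfusing the heart with collagenase and sorting the cells by fluorescence. The 5 knockout animals carried Actn2 F/F, a pair of floxed alleles of the gene for the Z-disc protein alpha-actinin-2, and the 5 heterozygote animals, which served as controls, carried Actn2 F/+. Both groups had received AAV9-cTNT-Cre at postnatal day 1, a viral vector that expresses Cre recombinase from a cardiac troponin T promoter, so both groups had virus and Cre, and the heterozygotes too carried a floxed allele that Cre could delete.

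In a developing heart, exon choice shifts from fetal to adult patterns as the levels of antagonistic regulators change. MBNL proteins, which bind GC-containing YGCY elements, gain influence after birth, while CELF proteins, which bind UGU-rich elements, lose it. RBFOX proteins bind GCAUG and promote or repress exons depending on whether they sit after or before them, PTB proteins mostly repress exons with CU-rich elements, QKI binds ACUAAC, and RBM20 and RBM24 act on transcripts of sarcomere and calcium-handling proteins. Counts per gene give the amount of each regulator's RNA and say nothing of the splicing of its targets or of the regulator's own isoforms.

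Because several of these genes are close relatives, it matters whether reads of one could be counted for another. Between the longest coding sequences of Rbfox1 and Rbfox2 in the GENCODE M21 annotation (1251 and 1347 bases), 70.6% of the 1141 positions aligned without a gap were identical, and the longest identical run was 29 bases. That run lies in the code for the end of the RNA recognition motif, and is shown here 5′ to 3′ with 30 flanking bases on each side and with differing bases in capitals, because the opposite changes of these 2 genes rest on telling their reads apart.
Rbfox1: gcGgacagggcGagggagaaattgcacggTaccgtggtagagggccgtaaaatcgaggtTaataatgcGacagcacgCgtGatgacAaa
Rbfox2: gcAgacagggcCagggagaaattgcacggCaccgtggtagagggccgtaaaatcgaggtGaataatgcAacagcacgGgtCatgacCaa
Of these 89 bases 8 differ. The stretch spans a pair of exons in each gene, between 7292221 and 7294101 on the plus strand of chromosome 16 for Rbfox1 and between 77102908 and 77105633 on the minus strand of chromosome 15 for Rbfox2 (GRCm38, the assembly also named mm10). For Mbnl1 and Mbnl2 the longest identical coding run was 26 bases, for Celf1 and Celf2 23, for Rbm24 and its paralog Rbm38 23, and for Ptbp1 and its paralog Ptbp2 14. No coding window of 50 bases was shared within any of these 5 pairs, for the transcripts compared.

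Total counts ran from 8086656 to 25237696 per library, and single members had between 106 (Rbfox1) and 8336 (Rbm24) counts in a library. Actn2, the targeted gene, was at 1144 to 1285 CPM in the knockout and 2674 to 3469 CPM in the heterozygote, without overlap. Here CPM is the count divided by the library total in units of 1e6, after TMM scaling, which corrects for differences in composition. The 10 cardiomyocyte markers summed to 118000 to 144400 CPM in the knockout and 122300 to 154500 CPM in the heterozygote, and none was at 0. Among them Mybpc3 was called higher (log2 fold change 0.43) and Tnni3 and Atp2a2 lower (-0.53 and -0.40), and the others were not called. The 10 endothelial markers summed to 341.6 to 568.6 CPM in the knockout and 503.7 to 802 CPM in the heterozygote, and although 2 of them were called lower, the log2 fold change of each lay between -0.77 and -0.38. Sums of 10 fibroblast markers overlapped (322.2 to 654.6 CPM in the knockout and 335.6 to 551 CPM in the heterozygote), as did sums of 8 neuronal and glial markers (5.112 to 8.307 and 6.142 to 7.667 CPM). Immune markers (12) summed to 9.72 to 12.92 CPM in the knockout and 15.44 to 44.53 CPM in the heterozygote, where heterozygote 3 was the highest and the others were at 15.44 to 21.84 CPM. Of the 5 immune markers tested, Csf1r was called lower (log2 fold change -0.86, edgeR adjusted p 0.0216), and all 5 log2 fold changes lay between -1.23 and -0.17. Without heterozygote 3 the call of Ptbp1 was lost (log2 fold change -0.41, edgeR adjusted p 0.0516) and those of the other 4 called regulators held. The Ptbp1 call held in only 2 of the 10 fits that each left out an animal, so its loss was not particular to heterozygote 3. In these bulk libraries, fewer cells of a type and less RNA per cell cannot be told apart. The 10 markers of pericytes and smooth muscle summed to 718.8 to 877.3 CPM in the knockout and 1131 to 1524 CPM in the heterozygote. Without Acta2 and Tagln the sums of the other 8 overlapped (541.6 to 696.3 CPM in the knockout and 474.3 to 699.3 CPM in the heterozygote). These 8 include Cspg4, at 132 ± 21.2 CPM in the knockout and 36.9 ± 6.38 CPM in the heterozygote. The overlap of the sums therefore does not show that the rest were unchanged. Among the 10, Acta2 and Tagln were called lower (log2 fold change -1.82 and -1.07) and Cspg4 higher (1.84), and the other 7 were not called, with Cnn1 at 1.05 and 6 between -0.65 and -0.26. None of these markers was at 0 in every library. The labels give no sex, and counts of 4 Y-linked genes were present in 3 heterozygotes and 4 knockouts and at or near 0 in heterozygotes 3 and 5 and knockout 5.

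Levels of different genes can be compared only per length of transcript, as RPKM (CPM per kilobase of annotated exon). Rbm24 was the most abundant of the 10 at 109 ± 13.4 RPKM in the heterozygote (SD, n = 5), and Rbfox1 the least at 4.74 ± 0.847. Mbnl2 (70.9 ± 11.3), Rbm20 (43.8 ± 4.64), Mbnl1 (32.3 ± 8.35), Celf1 (23.7 ± 1.28), Qk (19.4 ± 1.80), Celf2 (10.8 ± 1.13), Rbfox2 (8.98 ± 0.528) and Ptbp1 (8.33 ± 0.998) lay between them. The ranges of neighbours in this order overlapped for Rbm20 with Mbnl1, Mbnl1 with Celf1, Celf2 with Rbfox2, and Rbfox2 with Ptbp1, and were apart for the other 5 neighbouring pairs. In the knockout the order of the means was the same, with Rbm24 at 113 ± 17.4 and Rbfox1 at 2.59 ± 0.580 RPKM. There the ranges overlapped for Celf1 with Qk and for Celf2 with Rbfox2. In particular, Rbfox2 (12.2 ± 0.894 RPKM) and Ptbp1 (6.34 ± 0.772 RPKM), whose ranges met in the heterozygote, were apart in the knockout.

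**Figure D1:**
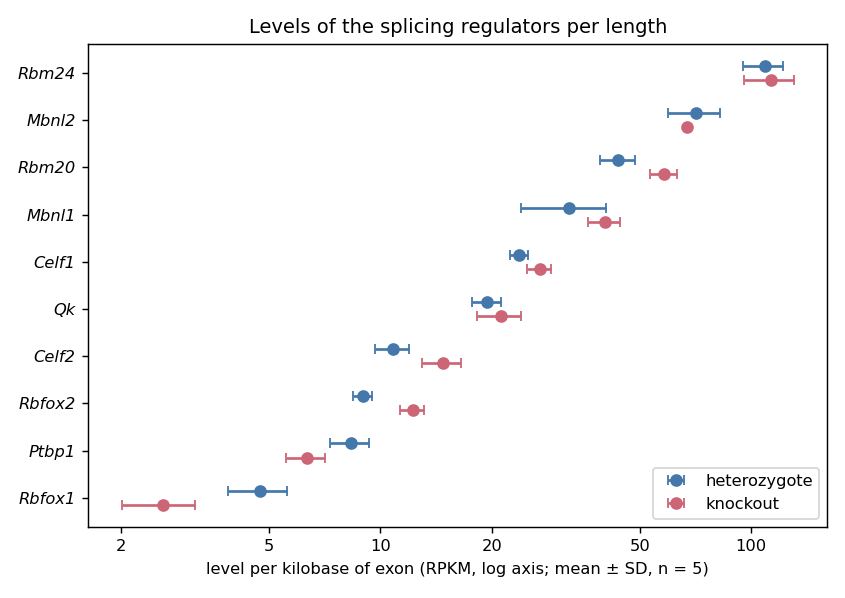
Level of each of the 10 regulators per kilobase of exon (RPKM, log axis), as mean ± SD over 5 animals, in the heterozygote (blue) and the knockout (red). The order of the means is the same in both groups, from Rbm24 at 109 and 113 RPKM to Rbfox1 at 4.74 and 2.59 RPKM.

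Of the 10 regulators, 5 were called between the genotypes, meaning that edgeR's quasi-likelihood test gave a p below 0.05 after adjustment over all 11870 genes, and 18.9% of those genes were called. Rbm20, Rbfox2 and Celf2 were higher in the knockout (background share called higher 10.2%), and Rbfox1 and Ptbp1 were lower (background share called lower 8.64%). All 5 changes were less than 2-fold. The groups did not overlap in 4 regulators, of which Rbm20, Rbfox2 and Celf1 were higher and Rbfox1 lower, where 14.8% of all tested genes did not overlap (8.42% higher and 6.34% lower). Rbm24, Mbnl1, Mbnl2, Celf1 and Qk did not pass the test. The median log2 fold change was 0.15 over the 10 and 0.0023 over all tested genes. The 10 share a purpose but were picked by hand, so these counts describe them and are no test of the set. Over all genes 1216 were called higher and 1025 lower, and with scaling by library totals alone 1684 and 760.

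**Figure D2:**
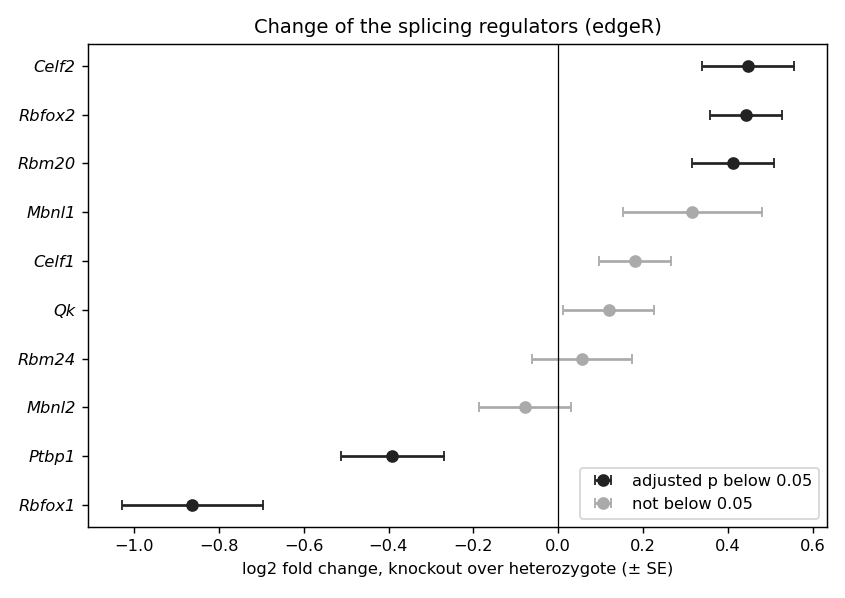
Log2 fold change of each regulator, knockout over heterozygote, with its standard error, from edgeR's test over 5 animals per group. Rbfox1, Ptbp1, Rbm20, Rbfox2 and Celf2 were called and the others were not.

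The RBFOX genes changed in opposite directions. Rbfox1 encodes the family member that is prominent in muscle, heart and neurons, and lies on chromosome 16 at 5884793 to 7412480 (plus strand, 19 exonic blocks). It was at 11.03, 13.2, 13.6, 13.5 and 19.6 CPM in knockouts 1 to 5, and at 23.04, 19.6, 27.1, 31.2 and 29.0 CPM in heterozygotes 1 to 5. All knockouts lay below all heterozygotes, but knockout 5 and heterozygote 2 were only 0.073 CPM apart. The means were 14.2 ± 3.18 and 26.0 ± 4.64 CPM (SD, n = 5), so the knockout held 0.550 of the heterozygote level (log2 fold change -0.86, SE 0.166, edgeR adjusted p 0.00236). It was the largest change among the 10 and the only one called under every alternative run, and its log2 fold change lay between -1.01 and -0.79 over the 10 fits that each lacked an animal.

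Rbfox2 encodes the more broadly expressed family member and lies on chromosome 15 at 77078990 to 77307053 (minus strand, 16 exonic blocks). It was at 85.3, 93.2, 82.1, 89.7 and 98.9 CPM in knockouts 1 to 5, and at 70.7, 69.3, 63.8, 65.4 and 61.2 CPM in heterozygotes 1 to 5. The lowest knockout was 11.5 CPM above the highest heterozygote. The means were 89.8 ± 6.58 and 66.1 ± 3.88 CPM (log2 fold change 0.44, SE 0.0848, edgeR adjusted p 0.00232). The call was lost with the endothelial marker score as a covariate (edgeR adjusted p 0.0579) and among the 7 samples with Y-linked counts (edgeR adjusted p 0.0664), at log2 fold changes of 0.41 and 0.35.

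RBM20, whose mutation can cause dilated cardiomyopathy, represses exons of the giant sarcomere protein titin among other targets. Rbm20 lies on chromosome 19 at 53677306 to 53867080 (plus strand, 14 exonic blocks). It was at 359.8, 405, 377, 350.5 and 427 CPM in knockouts 1 to 5, and at 307, 276, 324, 244 and 293 CPM in heterozygotes 1 to 5. Every knockout lay above every heterozygote, by at least 26.9 CPM. The means were 384 ± 31.9 and 289 ± 30.6 CPM, a rise of 1.33-fold (log2 fold change 0.41, SE 0.0968, edgeR adjusted p 0.00856). With the endothelial covariate its log2 fold change was 0.26 (edgeR adjusted p 0.264). Endothelial markers were lower in the knockout as given above, and their part in this and the other calls was not tested beyond this fit, in which the calls over all genes fell from 2241 to 927.

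RBM24 promotes inclusion of muscle exons during heart development. Rbm24 lies on chromosome 13 at 46418300 to 46431099 (plus strand, 4 exonic blocks). It was at 305, 341, 339.8, 383 and 451 CPM in knockouts 1 to 5, and at 349.8, 285, 398, 339 and 378 CPM in heterozygotes 1 to 5. The groups overlapped widely, and the difference was within the spread between animals (log2 fold change 0.06, SE 0.119, edgeR adjusted p 0.795), with a sign that changed with the processing.

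**Figure D3:**
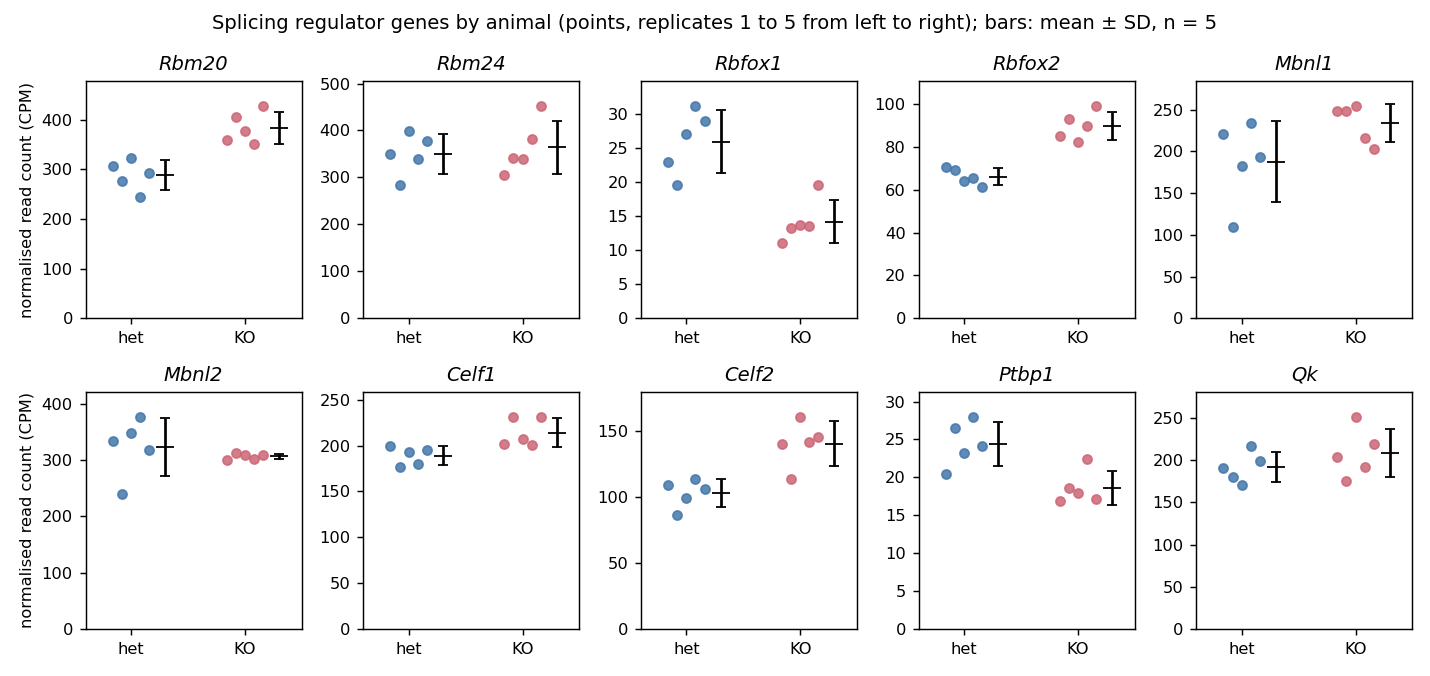
Normalised read count (CPM) of each of the 10 regulators in every animal, with mean ± SD over 5 animals per group and each axis starting at 0. Rbfox1 is lower and Rbm20 and Rbfox2 are higher in all knockouts than in all heterozygotes, and Mbnl2 lies between 299 and 312 CPM in the knockouts and between 239 and 376 CPM in the heterozygotes.

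Among the antagonistic MBNL and CELF genes, Celf2 alone passed the test. CELF2 belongs to the family whose activity favours fetal exon choice in the heart, and its gene lies on chromosome 2 at 6539699 to 7396198 (minus strand, 18 exonic blocks). Celf2 was at 140.2, 113, 160.5, 141 and 146 CPM in knockouts 1 to 5, and at 109, 86.1, 99.4, 114 and 106 CPM in heterozygotes 1 to 5. Of the knockouts, knockout 2 fell just below heterozygote 4 and the other 4 lay above all heterozygotes. The means were 140.3 ± 17.1 and 103 ± 10.8 CPM (log2 fold change 0.45, SE 0.108, edgeR adjusted p 0.0104). The call was lost with the endothelial covariate (edgeR adjusted p 0.123) and among the 7 samples with Y-linked counts (edgeR adjusted p 0.0829), while the log2 fold change was 0.43 in both.

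Celf1, on chromosome 2 at 90940397 to 91019497 (plus strand, 16 exonic blocks), encodes the best known CELF protein of the heart. It was at 201, 231, 207, 200.3 and 231 CPM in knockouts 1 to 5, and at 199.7, 177, 193, 179 and 195 CPM in heterozygotes 1 to 5. The groups were apart by 0.615 CPM, and the difference was not called after adjustment (log2 fold change 0.18, SE 0.0846, edgeR p 0.0502, adjusted p 0.155). With library totals in place of TMM it passed (edgeR adjusted p 0.0439).

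Mbnl1, on chromosome 3 at 60472830 to 60629748 (plus strand, 13 exonic blocks), encodes the main muscleblind protein of striated muscle. It was at 248, 249, 254, 216 and 203 CPM in knockouts 1 to 5, and at 221, 109, 183, 234 and 193 CPM in heterozygotes 1 to 5. Heterozygote 2 stood lowest of all 10 animals, and the difference of the means (234 ± 22.8 and 188 ± 48.5 CPM) was not called (log2 fold change 0.32, SE 0.163, edgeR adjusted p 0.199). Without heterozygote 2 the log2 fold change of Mbnl1 was 0.18 (edgeR adjusted p 0.277). Mbnl2, on chromosome 14 at 120275669 to 120431698 (plus strand, 9 exonic blocks), was at 299, 312, 309, 302 and 308 CPM in knockouts 1 to 5, and at 334, 239, 348, 376 and 318 CPM in heterozygotes 1 to 5. Here too heterozygote 2 was the lowest, and the knockouts lay inside the heterozygote range (log2 fold change -0.08, SE 0.109, edgeR adjusted p 0.674).

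PTBP1 represses muscle and neuronal exons in undifferentiated cells and is normally low in mature muscle. Ptbp1 lies on chromosome 10 at 79854605 to 79864433 (plus strand, 14 exonic blocks). It was at 16.9, 18.6, 17.9, 22.5 and 17.1 CPM in knockouts 1 to 5, and at 20.4, 26.5, 23.2, 27.9 and 24.1 CPM in heterozygotes 1 to 5. Knockout 4 exceeded heterozygote 1, and the other 4 knockouts lay below all heterozygotes. The means were 18.6 ± 2.26 and 24.4 ± 2.93 CPM, which in log2 terms was a difference of -0.39 (SE 0.122, edgeR adjusted p 0.0376). This was the least stable of the 5 calls. It was kept without heterozygote 1 or knockout 4 and lost without any of the other 8 animals (edgeR adjusted p 0.0516 to 0.0891), and with the endothelial covariate the log2 fold change was -0.18 (edgeR adjusted p 0.549). Ptbp1 shares 117 bases with the gene E130317F20Rik and 178 with BC005764, both on the other strand, which make up 3.99% and 6.07% of its exonic length, and those genes were at 2.33 and 0.431 CPM in the knockout, and under the counter's defaults reads in the shared bases count for none of them.

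QKI binds both pre-mRNA and mature transcripts and acts in smooth and cardiac muscle and in glia. Qk, on chromosome 17 at 10206471 to 10319361 (minus strand, 8 exonic blocks), was at 204, 175, 251, 192 and 219 CPM in knockouts 1 to 5, and at 191, 180.1, 171, 217 and 199 CPM in heterozygotes 1 to 5. Its groups overlapped, and the difference was not called (log2 fold change 0.12, SE 0.108, edgeR adjusted p 0.486).

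The balance of related or opposed regulators was measured within each library as the log2 ratio of their counts, which does not depend on the scaling between libraries. Of 6 pairs compared, 3 had an adjusted p below 0.05 in an exact two-sided permutation test, which with 5 against 5 cannot give a p under 0.00794. The log2 ratio of Rbfox1 to Rbfox2 was -2.95, -2.82, -2.59, -2.72 and -2.34 in knockouts 1 to 5, and -1.62, -1.82, -1.23, -1.07 and -1.08 in heterozygotes 1 to 5. The groups were apart, with a difference of -1.32 (exact permutation p = 0.00794, adjusted over the 6 pairs 0.0238), so that the ratio was 0.401 of that in the heterozygote. As a share of the counts of both genes, Rbfox1 made up 13.5% ± 1.95 (SD, n = 5) in knockouts and 28.2% ± 4.62 (SD, n = 5) in heterozygotes. The highest knockout share was 16.5% (Wilson 95% interval 14.98 to 18.16%) in knockout 5, and the lowest heterozygote share 22.1% (19.2 to 25.2%) in heterozygote 2, so the intervals for counting error did not meet.

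Ptbp2 encodes the neuronal paralog of PTBP1, whose protein PTBP1 holds down in many tissues by making its transcript skip an exon. The log2 ratio of Ptbp1 to Ptbp2 was -0.96, -0.89, -1.37, -0.65 and -1.06 in knockouts 1 to 5, and -0.40, 1.00, -0.10, 0.01 and -0.27 in heterozygotes 1 to 5. No values overlapped, and the difference was -1.03 (exact permutation p = 0.00794, adjusted 0.0238). Ptbp1 made up 50.7% ± 9.32 of the counts of both in the heterozygote and 33.6% ± 3.99 in the knockout. Ptbp2 itself was at 32.8, 34.4, 46.4, 35.4 and 35.7 CPM in knockouts 1 to 5 and at 26.9, 13.3, 24.8, 27.8 and 29.1 CPM in heterozygotes 1 to 5. The groups did not overlap for this gene (log2 fold change 0.59, SE 0.177, edgeR adjusted p 0.0310), although the call was lost without heterozygote 3 (edgeR adjusted p 0.0501), without knockout 3 (edgeR adjusted p 0.0896), with the endothelial covariate (edgeR adjusted p 0.197) and among the 7 samples with Y-linked counts (edgeR adjusted p 0.0695). The log2 fold changes in those fits were 0.60, 0.50, 0.58 and 0.70.

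The log2 ratio of Mbnl1 to Mbnl2 was higher in the knockout, although neither gene was called alone. It was -0.27, -0.33, -0.28, -0.48 and -0.60 in knockouts 1 to 5, and -0.60, -1.13, -0.93, -0.69 and -0.72 in heterozygotes 1 to 5. Knockout 5 fell just below heterozygote 1, and the other 4 knockouts lay above all heterozygotes (difference 0.42, exact permutation p = 0.0159, adjusted 0.0317). Mbnl1 made up 43.3% ± 2.45 of the counts of both in the knockout and 36.3% ± 3.40 in the heterozygote.

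The other 3 balances did not pass. The difference was -0.27 for Celf1 over Celf2 (exact permutation p = 0.0952, adjusted 0.114), where knockout 2 lay with the heterozygotes and the test passed without it (difference -0.37, exact permutation, adjusted p 0.0357). For Rbm24 over Rbm38 it was 0.37 (exact permutation p = 0.0714, adjusted 0.107), and without heterozygote 5, the highest of its group, the difference was 0.49 (exact permutation, adjusted p 0.0357). Each of these pairs passed in only 1 of the fits that left out an animal, with exact permutation adjusted p up to 0.19 in the rest. For Mbnl1 over Celf1, the pair that opposes the muscleblind and CELF families, the difference was 0.18 (exact permutation p = 0.444, adjusted 0.444), against a spread of 0.400 (SD) among heterozygotes.

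**Figure D4:**
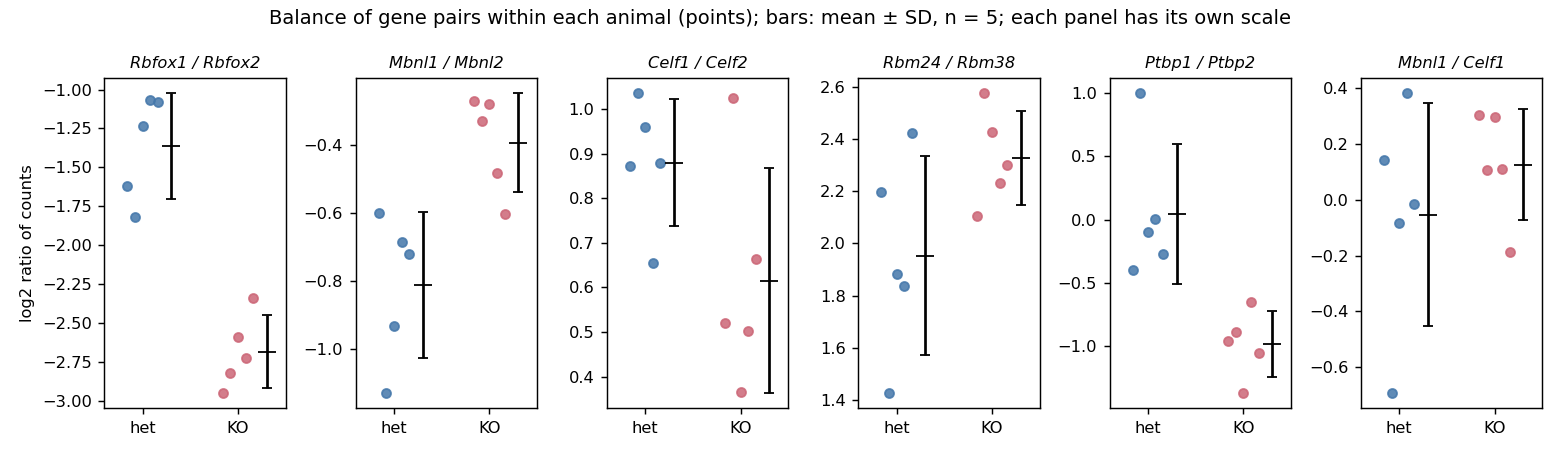
Log2 ratio of counts of 6 gene pairs within each animal, with mean ± SD over 5 animals per group and a separate scale in each panel. Knockouts and heterozygotes are apart for Rbfox1 over Rbfox2 (difference -1.32) and Ptbp1 over Ptbp2 (difference -1.03).

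Other genes of the splicing apparatus were counted in lists chosen by function. Over 6 lists with 117 tested genes, 7 were called (5.98%), 5 higher and 2 lower, with a median log2 fold change of 0.03. These shares are given beside the background of 18.9% as a description. The 5 called higher include Nova1, which passed the filter on low counts only through the knockout. In the paralogs of the 10 regulators, 5 of 12 passed the filter and Ptbp2 was called. Rbm38, the paralog of Rbm24, was at 72.9 ± 13.8 CPM in the knockout and 91.1 ± 17.01 CPM in the heterozygote (log2 fold change -0.32, edgeR adjusted p 0.154). Ptbp3, listed under its older symbol Rod1, had a log2 fold change of -0.18 and the STAR family genes Khdrbs1 and Khdrbs3 of 0.00 and 0.01, and none of these 3 was called. Celf3, Celf4, Celf5, Celf6, Rbfox3, Mbnl3 and Khdrbs2 had at most 17 counts in a library and were not tested.

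SR proteins, which recruit the spliceosome to exons, had 0 of 12 called by edgeR, by DESeq2 or by limma's voom, and 1 with an unadjusted p below 0.05 in edgeR. Their log2 fold changes ran from -0.27 to 0.07. In the list of hnRNP proteins, which often oppose SR proteins, 1 of 22 was called, Hnrnpr (log2 fold change 0.30, edgeR adjusted p 0.0458). That call held only without heterozygote 3 among the fits that left out an animal, and was lost without any of the other 9 (edgeR adjusted p 0.0515 to 0.0973). In the core spliceosome 1 of 34 was called, Crnkl1 (log2 fold change 0.34, edgeR adjusted p 0.0365), and its call held without heterozygote 1, heterozygote 4 or knockout 4 and was lost without any of the other 7 animals (edgeR adjusted p 0.0529 to 0.0897).

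Of 9 kinases that phosphorylate SR proteins, 1 was called. Srpk3, the kinase of this family that is specific to striated muscle, was at 181, 156, 164, 163 and 162 CPM in knockouts 1 to 5, and at 107, 144, 99.4, 84.2 and 78.2 CPM in heterozygotes 1 to 5. The groups did not overlap, and the rise was 1.61-fold (log2 fold change 0.69, SE 0.142, edgeR adjusted p 0.00376). It was lost only with the endothelial covariate, at a log2 fold change of 0.62 (edgeR adjusted p 0.0831).

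Of 35 other RNA-binding splicing regulators tested, 1 was called higher and 2 lower. The gene called higher was Nova1, whose call is not used, for the reason given below. Rbpms2, an RNA-binding protein of cardiac and smooth muscle, fell from 79.3 ± 10.2 to 54.5 ± 5.73 CPM without overlap (log2 fold change -0.54, SE 0.108, edgeR adjusted p 0.00299), and its call was lost with the endothelial covariate at a log2 fold change of -0.49 (edgeR adjusted p 0.0682). The remaining pair, Nova1 and Srrm4, are known as regulators of neuronal exons and fall outside the naming rule, so that their values were known when they were singled out. Nova1 had 86, 27, 132, 78 and 90 counts in knockouts 1 to 5, and 16, 7, 4, 2 and 0 counts in heterozygotes 1 to 5, or 7.39 ± 4.08 against 0.453 ± 0.344 CPM. It passed the filter on low counts only through the knockout, so its values are given as a description, with no fold or test. Srrm4 had 44, 42, 40, 6 and 39 counts in knockouts 1 to 5 and 338, 114, 47, 49 and 79 counts in heterozygotes 1 to 5, or 2.90 ± 1.55 against 9.48 ± 4.29 CPM (log2 fold change -1.73, SE 0.398, edgeR adjusted p 0.00750). Srrm4 did not overlap between the groups in CPM, where 6.34% of all tested genes lay apart and lower. Its call held in every alternative fit run. The neuronal and glial markers stayed below 8.31 CPM in sum in every library.

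**Figure D5:**
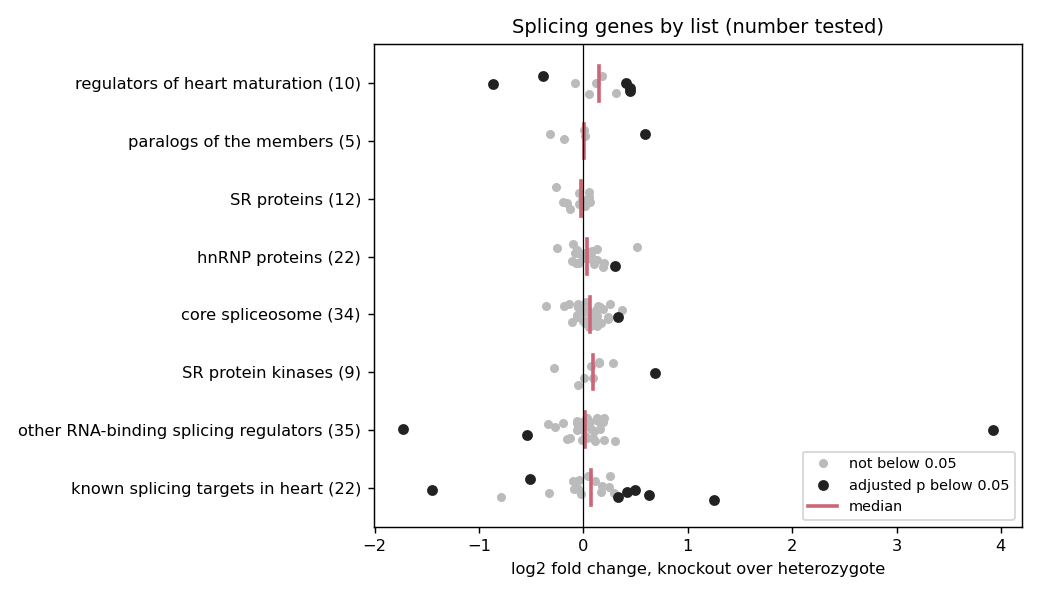
Log2 fold change, knockout over heterozygote, of every tested gene of the 10 regulators and of 7 lists of splicing genes and targets, with the list medians as red bars. Black points had an edgeR adjusted p below 0.05, and those of SR, hnRNP and core spliceosome genes number 0, 1 and 1. The black point of Nova1, which passed the filter only through the knockout, is a description and no test.

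Transcripts that these regulators are known to splice in heart or muscle formed the last list, and their counts give amounts and not isoforms. Of 22 tested, 5 were called higher and 2 lower (31.8% called, against 18.9% of all tested genes). Rtn4, a reticulon gene and RBM20 target, rose from 66.7 ± 13.7 to 159 ± 20.005 CPM without overlap (log2 fold change 1.25, SE 0.142, edgeR adjusted p 3.73e-05). Pdlim5, the gene of an adaptor protein at the Z-disc, had a log2 fold change of 0.49 (edgeR adjusted p 0.0168), and its call was lost with the endothelial covariate at a log2 fold change of 0.54 (edgeR adjusted p 0.100). Tpm1, a tropomyosin gene, fell by 0.51 on the log2 scale (edgeR adjusted p 0.000296). Ldb3 and Cacna1c, which encode a Z-disc protein and the cardiac L-type calcium channel, and Clcn1, a muscle chloride channel gene at 2.09 CPM or less in the mean of either group, were also called and were singled out with their values known. Their log2 fold changes were 0.33, 0.42 and -1.45 (edgeR adjusted p 0.00959, 0.0168 and 0.0463). Those of Ldb3 and Cacna1c were lost with the endothelial covariate (edgeR adjusted p 0.172 and 0.273) and among the 7 samples with Y-linked counts (edgeR adjusted p 0.105 and 0.0527). Their log2 fold changes were 0.28 and 0.32 in the former fit and 0.33 and 0.40 in the latter. Clcn1 was called in 3 of the 10 fits that left out an animal, and its log2 fold change was -0.99 without heterozygote 2 (edgeR adjusted p 0.125). Titin itself, the best known RBM20 target, did not differ beyond its spread (Ttn, 2996 ± 869 and 3150 ± 861 CPM, log2 fold change -0.07, SE 0.210, edgeR adjusted p 0.854). Camk2d, whose exon choice also depends on RBM20, was at 473 ± 32.4 and 398 ± 66.5 CPM (log2 fold change 0.25, SE 0.112, edgeR adjusted p 0.140).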

How the data were processed

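The deposited values are read counts per gene, whole numbers without normalisation. Per the file headers, the authors counted with featureCounts 1.5.1 (4 threads, no other option) on the UCSC mm10 gene annotation, which by default ignores strand and drops reads that overlap several genes or align to several places. The submitters' processing notes name STAR 2.5.3a and Subread 1.5.2, while the alignment files in the header carry another aligner's default name, so the aligner is uncertain. The deposited table gives exon length as a plain number of bases. Its 4 columns of other samples were not used.

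Genes passing edgeR's filterByExpr (minimum count 10, minimum total 15) were scaled with TMM and compared by quasi-likelihood F tests in edgeR 4.0.16 under R 4.3.3 on all 10 samples, with Benjamini-Hochberg adjustment. SE is the log2 fold change divided by the square root of F. Pair ratios added 0.5 to counts and used exact permutation (scipy 1.17.1). Intervals cover counting error only. The series' design names 5 biological replicates per group and no litters or batches. No pair of replicates agreed within sampling noise (chi-square 10.8 to 37.5 per degree of freedom over 20 pairs). On simulated counts for this comparison (11870 genes), 79.8% of genes changed 2-fold and 99.0% of those changed 4-fold were recovered, with 4.84% false calls. Changes smaller than 2-fold were not simulated, so recovery at the sizes seen in the 10 regulators was not measured.

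The regulators, lists and tests were chosen with earlier results of these data known. Genes named from lists are the 3 largest called rises and 3 largest called falls with a mean of at least 10 CPM, paralogs with a mean of at least 1 CPM, Ttn and Camk2d, and the genes most correlated with Rbfox1 and Rbfox2 within the groups. Some genes that this rule names are not reported here. Alternatives were RLE, upper-quartile and library-total scaling, no filter, a mean of at least 5 CPM, DESeq2 1.42.0, voom (limma 3.58.1), the replicate number as a block, Y-linked and endothelial covariates and leaving out each animal. A fit of the 7 samples with Y-linked counts was added after seeing the data. Sequences are from GENCODE M21.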

Additional observations from a re-analysis of the deposited data

Results flagged for a closer look

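Among 34 groups of 5 values (10 regulators, 6 pair ratios and the total count in each genotype), 2 had a highest or lowest value set off from its neighbour by more than 0.71 of the group's range, where chance gives about 1.7. The log2 ratio of Ptbp1 to Ptbp2 was 1.00 in heterozygote 2 and at most 0.01 in the other heterozygotes (gap 0.71 of the range). Without that animal the Ptbp1 call was lost (edgeR adjusted p 0.0659), while the difference of the ratio was -0.79 and still passed (exact permutation, adjusted p 0.0238). The total count of heterozygote 1 was 25237696, while the other heterozygotes had at most 10309615, a gap that is 0.87 of the range, and without it the 5 regulators called with all samples were called too.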

How the results depend on the processing

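Genes called over the whole table numbered 927 with the endothelial covariate and 1308 in the 7 samples with Y-linked counts, against 2241. The regulators called numbered 1 and 2 in those fits (0 and 1 higher, 1 and 1 lower). With library totals, no filter or voom, 1 regulator was called lower. Leaving out an animal gave 1 to 2 called lower. Of the splicing lists, 12 genes were called with library totals, 2 with the endothelial covariate, 4 with Y-linked counts only and 4 to 7 without an animal. Each of these counts includes Nova1.

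With the endothelial covariate the log2 fold change was 0.2643 for Rbm20, 0.4106 for Rbfox2, 0.4284 for Celf2 and -0.1833 for Ptbp1, all no longer called. In the samples with Y-linked counts it was 0.3548 for Rbfox2, 0.4286 for Celf2 and -0.3889 for Ptbp1, again not called. Ptbp1 was also lost at -0.3106 (library totals), -0.3843 (no filter) and -0.313 (voom), and ranged from -0.4654 to -0.3379 without an animal. Celf1 was called at 0.263 with library totals. The cause was not tested for any of these.

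Signs turned only in genes that were not called. Rbm24 was at -0.01716 with voom and -0.02556 with the endothelial covariate, and ranged from -0.03359 to 0.1135 without an animal. With the endothelial covariate Mbnl2 was at 0.02421, Ptbp3 (Rod1) at 0.01918 and Khdrbs3 at -0.03958. Khdrbs1 was at -0.009349 (RLE), -0.02415 (upper quartile), -0.001149 (mean of at least 5 CPM), -0.01014 (DESeq2), -0.004764 (replicate block) and -0.004526 (Y-linked counts only), and from -0.08031 to 0.06924 without an animal. Khdrbs3 was at -0.003763 (RLE), -0.01911 (upper quartile), -0.001425 (DESeq2), -0.01846 (replicate block) and -0.07492 (Y-linked counts only), and from -0.08584 to 0.1047 without an animal. Ttn was at 0.008317 with library totals and 0.05425 with voom, and from -0.225 to 0.0632 without an animal. By CPM without length, 7 regulators changed rank between the groups.

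Deviations of same-numbered samples correlated at -0.06 to 0.185. For numbers 4 and 5 the most alike sample of the other group had the same number, and for numbers 1, 2 and 3 it did not. Since the correlations were low, the replicate numbers were not taken to pair the samples. With the replicate block 2182 genes and 5 regulators were called, Hnrnpr (log2 fold change 0.31), Crnkl1 (0.34) and Clcn1 (-1.39) were not, and the pair differences of -1.319 (Rbfox1 over Rbfox2), 0.42 (Mbnl1 over Mbnl2) and -1.031 (Ptbp1 over Ptbp2) had an adjusted p of 0.0938 by an exact sign-flip permutation test that cannot go below 0.0625. Without an animal the Celf1 over Celf2 difference ranged from -0.3671 to -0.202 and that of Rbm24 over Rbm38 from 0.242 to 0.4915. Depth limits Ptbp1 and Rbfox1 most among the regulators, with 162 and 106 counts in their lowest libraries.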

Other observations

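Genes whose deviations from the group means were among those closest to Rbfox2 and Rbfox1 over the 10 samples, among 8358 tested genes averaging 10 CPM or more, are given as a description, since the values share libraries and scaling. For Rbfox2 they were Ttpal and Vps53, with Pearson r within the groups of 0.93 and 0.89. For Rbfox1 they were Ctnnal1, Baiap2l1 and Fam134b, with Pearson r within the groups of 0.98, 0.97 and 0.97. None of these 5 genes was called between the genotypes (edgeR adjusted p 0.0544 to 0.979).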
